A study of Mus musculus with 6 samples.

Results

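Toll-like receptors and the proteins that present bacterial endotoxin to them were examined in organoids grown from mouse intestinal tumors of 3 *Trp53* genotypes. The 10 genes, *Tlr1*, *Tlr2*, *Tlr3*, *Tlr4*, *Tlr5*, *Tlr9*, *Lbp*, *Cd14*, *Ly96* and *Myd88*, were taken by their symbols from a table of 36172 genes. The rule used no expression value, but the genes were picked with earlier results of these data known. All organoids carried the *Apc* Δ716 truncation, on a C57BL/6 background, and came from mice aged 15 to 20 weeks. The authors describe loss of the remaining *Apc* allele in tumor cells of *Apc* Δ716 mice, which was not checked here in these organoids. The genotypes were *Trp53* +/+, *Trp53* flox/flox, in which a stop cassette makes the allele functionally null, and *Trp53* R270H/R270H, in which tamoxifen had activated villin-CreER, a recombinase driven by an epithelial promoter, so that the missense p53 R270H is made in the intestinal epithelium. In the paper's naming, flox/flox mice had the same alleles, villin-CreER among them, and became R270H/R270H when given tamoxifen. Tamoxifen treatment and R270H thus cannot be told apart between these genotypes. Whether the +/+ mice carried villin-CreER or received tamoxifen is not given in the sources used here. Each genotype was measured by RNA sequencing in 2 libraries of poly(A) RNA, 6 in all, from organoids that the series' design text describes as made separately from 2 mice.

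A Toll-like receptor (TLR) is a membrane protein of the innate immune system that binds a microbial molecule and starts a signal to NF-κB, the kinases of the stress response or interferon regulatory factors. Endotoxin, the lipopolysaccharide (LPS) of Gram-negative bacteria, is picked up by the secreted LPS-binding protein (*Lbp*), passed to CD14 and handed to the complex of TLR4 with its co-receptor MD-2 (*Ly96*). Most TLRs then signal through the adaptor MyD88, whereas TLR3 uses the adaptor TRIF. The intestinal epithelium faces dense bacteria, and its cells are known for holding these receptors at low levels.

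Organoids with R270H differed from the +/+ organoids in the machinery for endotoxin. *Lbp* rose from at or near the lowest value of the table to 6.52±1.12 rpkm (mean±s.d., n=2), a read count scaled by gene length and by the mapped reads of the library, and *Tlr2*, the receptor for bacterial lipopeptides, rose from 3.42±0.491 to 8.79±0.579 rpkm. *Cd14* fell from 15.6±1.58 to 3.13±0.459 rpkm, and *Tlr4*, the receptor for LPS, fell from 10.2±0.417 to 5.04±0.437 rpkm. *Myd88* was higher than in +/+ organoids in both mutant genotypes. Of the 10 genes, 7 were tested, and the other 3 were at the floor in all libraries. In R270H/R270H against +/+ organoids, limma called 3 of the 7 higher (*Lbp*, *Tlr2*, *Myd88*) and 2 lower (*Tlr4*, *Cd14*). It called 5.86% of all 10042 genes tested higher and 6.36% lower. For flox/flox against +/+, 1 of the 7 was called higher (*Myd88*) and 0 lower, against 4.38% and 6.90% of all genes tested. At an unadjusted p under 0.05, 3 of the 7 tested were higher and 1 was lower. Of all 10042 genes tested, 3489 were under it in either direction. For R270H/R270H against flox/flox, 2 were higher (*Lbp*, *Tlr2*) and 2 lower (*Tlr3*, *Cd14*), against 13.6% and 11.0%. *Lbp* was tested only because it was high in R270H/R270H organoids, so that its 2 calls are part of how it entered the test and add nothing to these counts against the background. *Tlr2* in +/+ and *Cd14* in R270H/R270H organoids were under the 4 rpkm asked for a test. Each of them was tested through the other genotypes, where it was higher. The 3 comparisons share libraries and are not independent of each other. A call is an adjusted p under 0.05, and changes are given on the scale of log2(rpkm+1), which understates the change of genes with low levels.

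Sequences around the start sites are shown for *Tlr2*, *Tlr3* and *Myd88*, the 3 genes that were called in a comparison and had a window in RefSeq (GRCm38.p6), so that the regulatory letters near genes that moved can be read beside their values. Each window runs from 250 bases before to 50 bases after the start site in RefSeq, and distances are counted from that site. The gene spans given below are from GENCODE and begin further upstream. By those spans the *Tlr3* and *Myd88* windows lie inside the gene, and the *Tlr2* window crosses its upstream end. All 3 genes shown lie on the minus strand, so that each line reads 5′ to 3′ along the gene. Capitals mark matches to the κB motif of NF-κB in *Tlr2* and *Tlr3*, and to the interferon-stimulated response element (ISRE, GAAANNGAAA) in *Myd88*, searched on both strands.
Tlr2, chr3:83841559-83841858: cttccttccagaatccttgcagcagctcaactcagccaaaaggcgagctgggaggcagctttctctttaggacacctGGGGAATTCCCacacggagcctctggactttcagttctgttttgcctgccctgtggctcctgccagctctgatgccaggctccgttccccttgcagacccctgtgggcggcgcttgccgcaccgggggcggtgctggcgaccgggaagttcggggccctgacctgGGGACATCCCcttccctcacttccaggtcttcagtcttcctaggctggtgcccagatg
Tlr3, chr8:45410331-45410630: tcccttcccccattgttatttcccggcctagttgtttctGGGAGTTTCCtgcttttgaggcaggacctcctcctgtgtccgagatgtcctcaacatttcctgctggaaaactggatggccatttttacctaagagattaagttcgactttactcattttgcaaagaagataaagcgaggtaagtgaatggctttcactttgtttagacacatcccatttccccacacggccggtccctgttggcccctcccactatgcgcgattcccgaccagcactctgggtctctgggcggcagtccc
Myd88, chr9:119339969-119340268: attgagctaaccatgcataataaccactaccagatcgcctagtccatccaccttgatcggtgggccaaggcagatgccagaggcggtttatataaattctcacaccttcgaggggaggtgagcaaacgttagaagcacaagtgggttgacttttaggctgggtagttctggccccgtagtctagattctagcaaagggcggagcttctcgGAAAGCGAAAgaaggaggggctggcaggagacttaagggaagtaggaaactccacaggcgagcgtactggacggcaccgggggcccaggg
The *Tlr2* window holds a pair of overlapping κB matches that begin 173 and 172 bases before the start and another that begins 8 bases before it. The *Tlr3* window holds 1 κB match, 211 bases before the start. Windows of *Tlr1*, *Tlr5* and *Tlr9*, which were at the floor in all libraries, held no κB or ISRE match. A κB match is in 4.51% of the 32851 windows of all genes. The ISRE match of *Myd88* begins 40 bases before the start, and such a match is in 3.44% of all windows. It is overlapped by a GAS motif (TTCNNNGAA), which is in 8.30% of all windows. AP-1 (TGANTCA, 7.81% of all windows) was not matched in these 3 windows, and C/EBP (TTNCNNAA, 40.7%) was matched once in *Tlr2* and at 2 places in *Tlr3*. The matches describe the letters only, and no binding was measured.

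The lowest value in the table was 1 rpkm, and 23760 of 36172 genes held it in all 6 libraries. It is therefore read as a floor, below which the level of a gene is not known. *Trp53*, the targeted gene, stood at 75.9 and 74.3 rpkm in +/+, 1.73 and 2.48 rpkm in flox/flox and 72.8 and 82.7 rpkm in R270H/R270H organoids. Epithelial markers were above the floor in every library (8 of 8). Their sum was not equal between genotypes, with 2697 to 2734 rpkm in +/+, 4022 to 4270 rpkm in flox/flox and 2228 to 2372 rpkm in R270H/R270H organoids. The flox/flox libraries lay further apart than the others, with a median s.d. between replicates of 0.247 on the log2 scale, against 0.0463 in +/+ and 0.0621 in R270H/R270H organoids. As all 6 libraries share an estimate of the spread, leaving out 1 library moved the calls of all genes together. For R270H/R270H against +/+, limma called 57.1% of all genes without either flox/flox library, 0 of 10042 without either +/+ library or the first R270H/R270H library (1470 to 1578 genes at an unadjusted p under 0.05) and 1.13% without the second R270H/R270H library. A call lost in these fits is thus lost with nearly every other gene, and the range of the difference itself is given beside it. With 2 libraries against 2, an exact permutation test of a single gene cannot go below p=0.333 (two-sided).

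**Figure D1:**
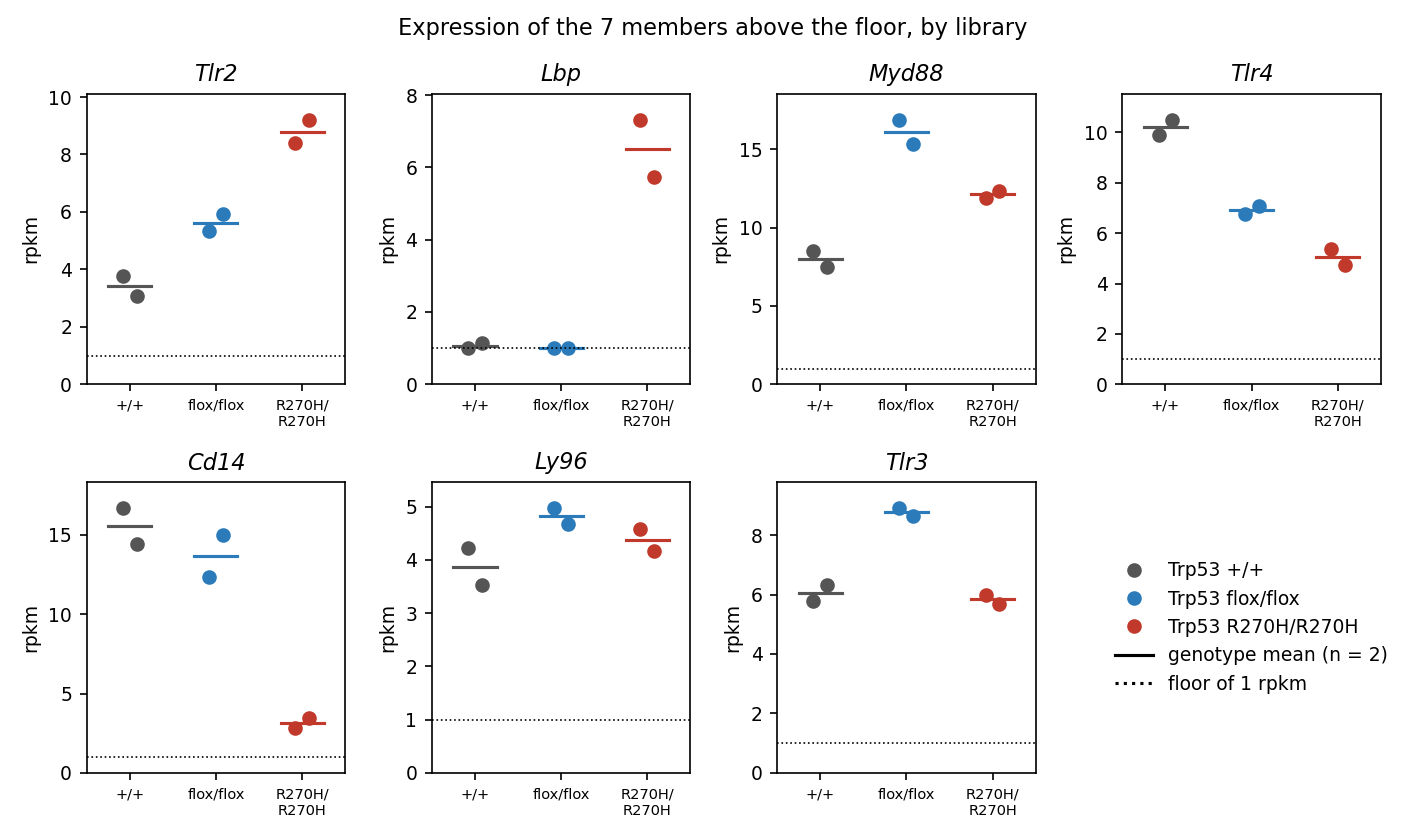
Expression in rpkm (axes from 0, a scale for each gene) of the 7 genes above the floor, with 1 point for each library, a line for the mean of each genotype and a dotted line at the floor of 1 rpkm. In R270H/R270H organoids both *Lbp* and *Tlr2* points lie above all others, and both *Cd14* points (2.81 and 3.46 rpkm) lie below all others.

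*Lbp* (GRCm38 chromosome 2, 158306493 to 158332852, plus strand) encodes the secreted protein that extracts LPS from bacterial membranes. It was listed at 1 and 1.14 rpkm in +/+, at 1 and 1 rpkm in flox/flox and at 7.31 and 5.73 rpkm in R270H/R270H organoids. The gene was thus at or near the floor in the 4 libraries without R270H and well above it in the 2 with R270H. It passed the filter of 4 rpkm through the R270H/R270H libraries alone, so that a difference was a condition of its being tested. Its mean was at least 6.08-fold higher than in +/+ and at least 6.52-fold higher than in flox/flox organoids, both lower bounds because of the floor. The fitted log2 difference was 1.85±0.17 (s.e.) against +/+ (limma, adjusted p=0.00552) and 1.90±0.17 against flox/flox (limma, adjusted p=0.00435). Against flox/flox the call held with any library left out (adjusted p up to 0.0389). Against +/+ it held without either flox/flox library and without the second R270H/R270H library (adjusted p=0.0431), and was lost without any other library of these genotypes (adjusted p up to 0.0777), while the difference stayed between 1.70 and 2.01.

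*Cd14* (GRCm38 chromosome 18, 36725067 to 36726798, minus strand) encodes the co-receptor that carries LPS to TLR4 and is otherwise best known from monocytes and macrophages. It stood at 16.7 and 14.4 rpkm in +/+, 12.3 and 15.0 rpkm in flox/flox and 2.81 and 3.46 rpkm in R270H/R270H organoids. The +/+ and flox/flox libraries overlapped, and both R270H/R270H libraries lay far below them. The means of +/+ and flox/flox organoids were 4.97-fold and 4.36-fold that of R270H/R270H organoids. The log2 difference of R270H/R270H was -2.00±0.16 from +/+ (limma, adjusted p=0.00432) and -1.82±0.16 from flox/flox (limma, adjusted p=0.00413). Between flox/flox and +/+ the difference was -0.18, with a 95% interval from -0.58 to 0.22 (limma, adjusted p=0.440). Without any 1 library of the genotypes compared, the adjusted p against +/+ lay between 0.0522 and 0.0733, and against flox/flox it lay between 0.000657 and 0.0656, with the call lost without the first R270H/R270H library and kept without any other. The difference stayed between -2.12 and -1.89 against +/+ and between -1.95 and -1.70 against flox/flox.

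Cells of other types were looked for through their markers, since leukocytes also express *Cd14* and TLRs. Of 10 leukocyte markers, 9 were at the floor in all 6 libraries, among them *Ptprc*, the pan-leukocyte antigen CD45, and the macrophage markers *Adgre1*, *Csf1r* and *Itgam*. The exception was *Cd68*, a lysosomal protein of macrophages that other cells can also make, with 10.2 and 9.87 rpkm in +/+, 2.06 and 11.1 rpkm in flox/flox and 2.22 and 2.41 rpkm in R270H/R270H organoids. It was low in both R270H/R270H libraries, as *Cd14* was, but also in the first flox/flox library, where *Cd14* was 12.3 rpkm. The sum of the 10 markers, with floor values counted as 1, was 18.9 to 19.2 rpkm in +/+, 11.1 to 20.1 rpkm in flox/flox and 11.2 to 11.4 rpkm in R270H/R270H organoids. Of 8 stromal and endothelial markers, *Col1a2*, *Col3a1*, *Pecam1* and *Kdr* were at the floor in all 6 libraries, *Col1a1*, *Dcn* and *Pdgfra* were above it in the second flox/flox library alone, and the endothelial cadherin *Cdh5* stood at 8.88 and 9.35 rpkm in +/+, 1 and 3.30 rpkm in flox/flox and 1.04 and 1 rpkm in R270H/R270H organoids. The sum of these 8 was 15.9 to 16.4, 8 to 12.0 and 8 to 8.04 rpkm. Their part in the differences was not tested. In such bulk RNA, fewer cells of a type and less RNA per cell cannot be told apart.

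*Tlr4* (GRCm38 chromosome 4, 66827584 to 66930284, plus strand) encodes the receptor for LPS. Its levels were 9.90 and 10.5 rpkm in +/+, 6.77 and 7.08 rpkm in flox/flox and 5.35 and 4.74 rpkm in R270H/R270H organoids. The 3 genotypes did not overlap and stepped down in that order. *Tlr4* fell by 0.89±0.12 on the log2 scale from +/+ to R270H/R270H (limma, adjusted p=0.0143), where the mean in +/+ was 2.02-fold that in R270H/R270H organoids. The steps on either side of flox/flox missed the threshold, with -0.50 from +/+ to flox/flox (95% interval -0.79 to -0.21, limma, adjusted p=0.0543) and -0.39 from flox/flox to R270H/R270H (-0.69 to -0.10, limma, adjusted p=0.0619). The call between R270H/R270H and +/+ was lost without any 1 library of these genotypes (adjusted p 0.130 to 0.196), whereas without either flox/flox library the adjusted p was at most 0.00147. The difference stayed between -0.96 and -0.82 in all these fits.

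*Ly96* (GRCm38 chromosome 1, 16688051 to 16709611, plus strand) encodes MD-2, the subunit of the TLR4 complex that holds LPS. It stood at 4.22 and 3.53 rpkm in +/+, 4.97 and 4.67 rpkm in flox/flox and 4.58 and 4.17 rpkm in R270H/R270H organoids. The R270H/R270H libraries overlapped those of +/+, and no comparison passed the threshold. The log2 difference between R270H/R270H and +/+ was 0.14 (95% interval -0.20 to 0.49, limma, adjusted p=0.526), so that an increase of up to 0.49 or a decrease of up to 0.20 was not distinguished from none. The difference between flox/flox and +/+ was 0.26 (-0.09 to 0.61, limma, adjusted p=0.236), and that between R270H/R270H and flox/flox was -0.12 (-0.46 to 0.23, limma, adjusted p=0.540).

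*Tlr2* (GRCm38 chromosome 3, 83836272 to 83841767, minus strand) encodes the receptor that pairs with TLR1 or TLR6 to bind bacterial lipopeptides, and its window with the κB matches is shown above. Its levels were 3.77 and 3.08 rpkm in +/+, 5.33 and 5.92 rpkm in flox/flox and 8.38 and 9.20 rpkm in R270H/R270H organoids. The genotypes did not overlap and rose in an order opposite to that of *Tlr4*, with flox/flox between the others. Against +/+, *Tlr2* was 2.57-fold higher in R270H/R270H organoids (log2 difference 1.15±0.14, limma, adjusted p=0.0119). Against flox/flox it was 1.56-fold higher (0.56±0.14, limma, adjusted p=0.0411). The difference of 0.58 between flox/flox and +/+ missed the threshold (95% interval 0.23 to 0.94, limma, adjusted p=0.0577). Without any 1 library of the genotypes compared, the adjusted p of R270H/R270H against +/+ lay between 0.0956 and 0.149, while the difference stayed between 1.04 and 1.26. Without a filter on low levels it was 0.0522. Against flox/flox the call held without either flox/flox library (adjusted p 0.00881 and 0.0270) and was lost without any of the other 4 (0.110 to 0.199), in a fit of the 2 genotypes (0.109), with weights for each genotype (0.292) and without a filter (0.126).

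*Tlr3* (GRCm38 chromosome 8, 45395665 to 45411080, minus strand) encodes the endosomal receptor for double-stranded RNA. It stood at 5.79 and 6.32 rpkm in +/+, 8.90 and 8.64 rpkm in flox/flox and 6.00 and 5.68 rpkm in R270H/R270H organoids. It was highest in the flox/flox libraries, and the other genotypes overlapped. *Tlr3* was 1.50-fold higher in flox/flox than in R270H/R270H organoids (log2 difference of R270H/R270H -0.51±0.11, limma, adjusted p=0.0307). The similar difference of 0.47 between flox/flox and +/+ missed the threshold (95% interval 0.19 to 0.75, limma, adjusted p=0.0563), and R270H/R270H differed from +/+ by -0.04 (-0.32 to 0.24, limma, adjusted p=0.825). The call against flox/flox was lost without any 1 +/+ or R270H/R270H library (adjusted p 0.112 to 0.184) and held without either flox/flox library (0.00496 and 0.0110). It was also lost in a fit of the 2 genotypes (0.112), with weights for each genotype (0.209) and without a filter (0.0575), while the difference stayed between -0.55 and -0.48 with 1 library left out.

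*Myd88* (GRCm38 chromosome 9, 119335934 to 119341411, minus strand) encodes the adaptor that joins the receptors to the IRAK kinases. It stood at 8.52 and 7.47 rpkm in +/+, 16.9 and 15.3 rpkm in flox/flox and 11.9 and 12.4 rpkm in R270H/R270H organoids. The genotypes did not overlap, and here flox/flox and not R270H/R270H was the highest. *Myd88* was 2.01-fold higher in flox/flox than in +/+ organoids (log2 difference 0.93±0.12, limma, adjusted p=0.0169) and 1.52-fold higher in R270H/R270H than in +/+ organoids (0.55±0.12, limma, adjusted p=0.0431). The difference of -0.38 between R270H/R270H and flox/flox missed the threshold (95% interval -0.68 to -0.09, limma, adjusted p=0.0670). The call in flox/flox was lost without any 1 +/+ or R270H/R270H library (adjusted p 0.0958 to 0.230) and that in R270H/R270H without any 1 +/+ or R270H/R270H library (0.229 to 0.343), whereas both held without either flox/flox library. The differences stayed between 0.84 and 1.01 and between 0.46 and 0.63. Fitted with the 2 genotypes alone, the adjusted p was 0.0938 in flox/flox and 0.00560 in R270H/R270H, and without a filter it was 0.0737 and 0.110.

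**Figure D2:**
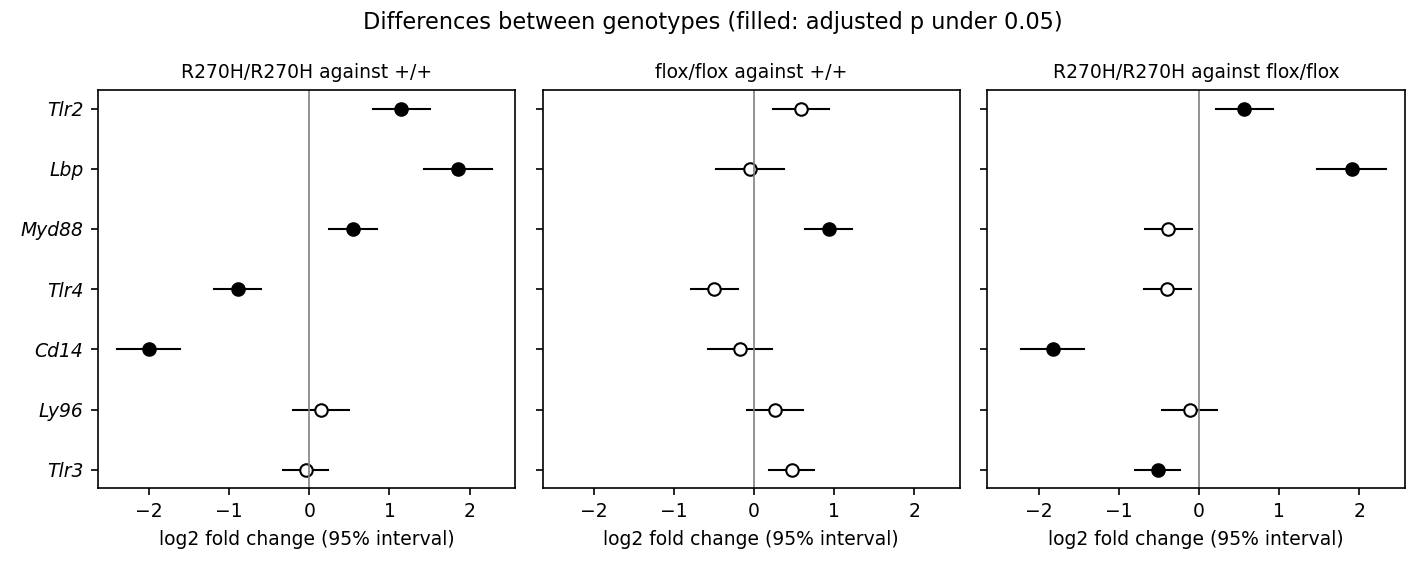
Log2 differences in log2(rpkm+1) between genotypes for the 7 genes tested, with points for the limma estimate, bars for its 95% interval and filled points for an adjusted p under 0.05. *Lbp* (1.85) and *Cd14* (-2.00) lie furthest from 0 for R270H/R270H against +/+, and the intervals of *Ly96* cross 0 in all 3 comparisons.

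The 3 remaining genes were listed at the floor of 1 rpkm in all 6 libraries and were not tested. They are *Tlr1* (GRCm38 chromosome 5, 64924679 to 64933563, minus strand), a partner of TLR2, *Tlr5* (chromosome 1, 182954788 to 182976044, plus strand), the receptor for bacterial flagellin, and *Tlr9* (chromosome 9, 106222598 to 106226883, plus strand), the endosomal receptor for unmethylated CpG DNA. *Tlr6*, *Tlr7*, *Tlr8*, *Tlr11*, *Tlr12* and *Tlr13* were at the floor in every library too. Thus 3 of the 12 receptors listed, *Tlr2*, *Tlr3* and *Tlr4*, had a level above 1 rpkm. A level below the floor is not distinguished from absence, and differences there were not measurable.

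Ratios between genes within a library do not depend on how the libraries were scaled. The ratio of *Tlr4* to *Tlr2* was 2.63 and 3.41 in +/+, 1.27 and 1.20 in flox/flox and 0.639 and 0.515 in R270H/R270H organoids. The LPS receptor was thus the more abundant of the pair in the 4 libraries without R270H and the less abundant in both libraries with it. The ratio of *Tlr3* to *Tlr2* crossed 1 in the same way. It was 1.54 and 2.05 in +/+, 1.67 and 1.46 in flox/flox and 0.716 and 0.618 in R270H/R270H organoids, so that the crossing was not particular to *Tlr4*. The ratio of *Cd14* to *Ly96* was 3.95 and 4.09 in +/+, 2.48 and 3.20 in flox/flox and 0.613 and 0.830 in R270H/R270H organoids. The co-receptor that delivers LPS exceeded the one that holds it wherever R270H was absent, and lay below it in both libraries with R270H. The ratio of *Myd88* to *Tlr2* was 2.26 and 2.43 in +/+, 3.17 and 2.59 in flox/flox and 1.42 and 1.34 in R270H/R270H organoids, above 1 in all 6 libraries. These ratios are given as a description, with no test.

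**Figure D3:**
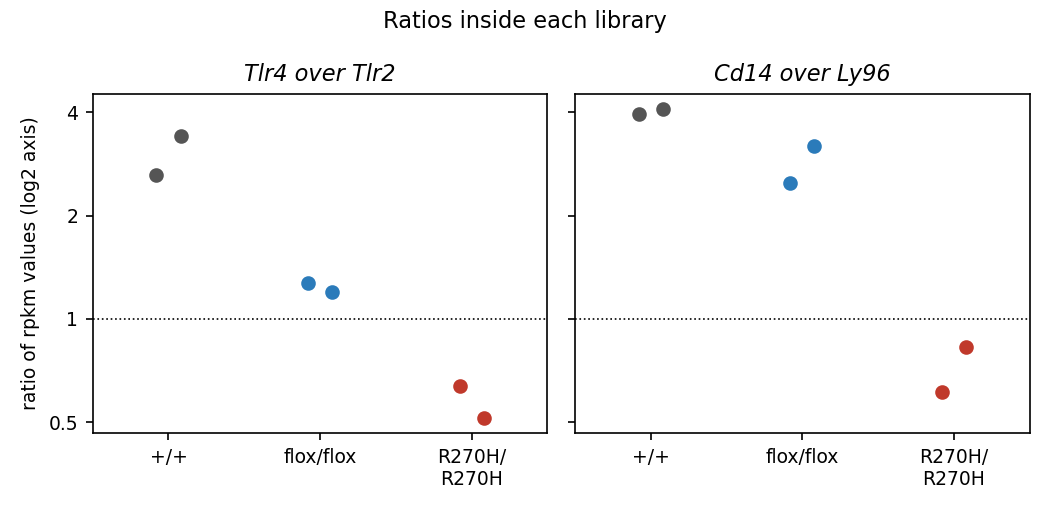
Ratios of rpkm between pairs of genes in the same library (logarithmic axis), with 1 point for each library and a dotted line at 1. The ratio of *Tlr4* to *Tlr2* falls from 2.63 and 3.41 in +/+ to 0.639 and 0.515 in R270H/R270H organoids, and that of *Cd14* to *Ly96* also crosses 1.

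The order of the levels, in rpkm and so per length of transcript, changed with genotype. In +/+ organoids *Cd14* was the highest of the 10 genes, followed by *Tlr4*, *Myd88*, *Tlr3*, *Ly96* and *Tlr2*, with the libraries of *Ly96* and *Tlr2* overlapping, and *Lbp* last of those above the floor. In flox/flox organoids *Myd88* was above *Cd14*, *Tlr3*, *Tlr4*, *Tlr2* and *Ly96*, in that order. In R270H/R270H organoids *Myd88* was again the highest, followed by *Tlr2*, then *Lbp* and *Tlr3*, whose libraries overlapped, then *Tlr4*, *Ly96* and *Cd14*. *Cd14* thus stood first in +/+ and last in R270H/R270H organoids among the genes above the floor.

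Further genes of TLR signaling and of the response to LPS were read from a list of 53, of which 37 passed the filter and 14 were at the floor in all 6 libraries. *Irf5* and *Ticam2* were above the floor in some library but under 4 rpkm in all, and are not among the 37. *Irf5*, a transcription factor, stood at 1 and 1 rpkm in +/+, 1.03 and 1.55 rpkm in flox/flox and 3.67 and 3.82 rpkm in R270H/R270H organoids. Its mean in R270H/R270H was at least 3.74-fold that in +/+ organoids. In R270H/R270H against +/+ organoids, 4 of the 37 rose and 2 fell, where limma called 5.86% of all genes tested higher and 6.36% lower, and the median log2 difference of the list was 0.07, against 0.03 over all genes tested. *Peli1*, a ubiquitin ligase that acts with the IRAK kinases, rose from 4.25±0.0732 to 9.03±0.393 rpkm (limma, adjusted p=0.0249). *Map3k7*, the kinase TAK1, was 22.4 against 15.7 rpkm (limma, adjusted p=0.0411), *Tbk1*, a kinase of interferon regulatory factors, was 22.1 against 15.9 rpkm (0.0438), and *Rnf216*, a ubiquitin ligase that limits TLR signals, was 16.2 against 11.3 rpkm (0.0404). *Gsdmd*, the pore-forming protein that cytosolic LPS activates through caspases, fell from 83.9±5.67 to 25.8±1.45 rpkm (limma, adjusted p=0.0164), with 45.3±14.8 rpkm in flox/flox organoids. *Irf3*, a transcription factor of the interferon response to LPS and double-stranded RNA, fell from 17.3±0.464 to 10.2±2.03 rpkm (limma, adjusted p=0.0431). The list had 23 calls without either flox/flox library, where 57.1% of all genes were called, and 0 without any 1 +/+ or R270H/R270H library, where at most 1.13% were.

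In flox/flox against +/+ organoids, 1 of the 37 genes rose and 3 fell, against 4.38% and 6.90% of all genes tested, shares that these counts lie near, with a median log2 difference of -0.07, against -0.02 over all genes. *Tnip1*, a partner of the NF-κB inhibitor A20, rose from 16.5 to 26.4 rpkm (limma, adjusted p=0.0397). *Irf7*, another interferon regulatory factor, fell from 4.53±0.424 to 1.93±0.273 rpkm (limma, adjusted p=0.0409), and *Chuk*, the kinase IKKα, from 32.4 to 22.5 rpkm (0.0363). *Irf7* was under 4 rpkm in both flox/flox libraries and passed the filter through the other genotypes. A difference from flox/flox was thus a condition of its being tested. *Alpi*, the intestinal alkaline phosphatase that detoxifies LPS and marks differentiated enterocytes, was 4.86 and 10.7 rpkm in +/+, at the floor in both flox/flox libraries and 8.80 and 4.35 rpkm in R270H/R270H organoids (flox/flox against +/+, limma, adjusted p=0.0426). Its mean in flox/flox was at least 7.77-fold lower than in +/+ and at least 6.58-fold lower than in R270H/R270H organoids, and it passed the filter through the genotypes where it is high, so that a difference from flox/flox was a condition of its being tested. Its +/+ and R270H/R270H libraries overlapped and each genotype spread widely. In the same 37 genes the calls numbered 0 without any 1 +/+ or R270H/R270H library, where at most 0.368% of all genes were called, and 12 and 25 without the first and the second flox/flox library, where 40.4% and 68.5% of all genes were called.

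In R270H/R270H against flox/flox organoids, 8 of the 37 genes were higher and 4 lower, against 13.6% and 11.0% of all genes tested, and with median-of-ratios scaling 5 were higher and 4 lower. The median log2 difference was 0.22, against 0.03 over all genes. Higher were the kinases *Map3k7* (22.4 against 15.9 rpkm), *Tbk1* (22.1 against 16.5 rpkm), *Chuk* (32.5 against 22.5 rpkm) and *Ikbkb*, the kinase IKKβ (7.12 against 4.89 rpkm, limma, adjusted p=0.0476). The others were *Peli1* (log2 difference 0.84), *Rnf216* (0.40), *Irf7* (1.07) and *Alpi*, with flox/flox at the floor. *Irf7* and *Alpi* passed the filter only through +/+ and R270H/R270H organoids, so that a difference from flox/flox was a condition of their being tested. *Irf3* was lower (-0.71, limma, adjusted p=0.0313), as were the inhibitors *Tnfaip3*, which encodes A20 (3.59 against 7.57 rpkm, 0.0497), and *Tnip1* (17.5 against 26.4 rpkm, 0.0345), and *Cnpy3*, a chaperone of TLRs (14.8 against 22.2 rpkm, 0.0292). *Tnfaip3* was under 4 rpkm in both R270H/R270H libraries and passed the filter through the other genotypes. The calls numbered 26 and 29 without the first and the second flox/flox library and 0 without any other library, where limma called 5318, 7259 and at most 376 of all 10042 genes.

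**Figure D4:**
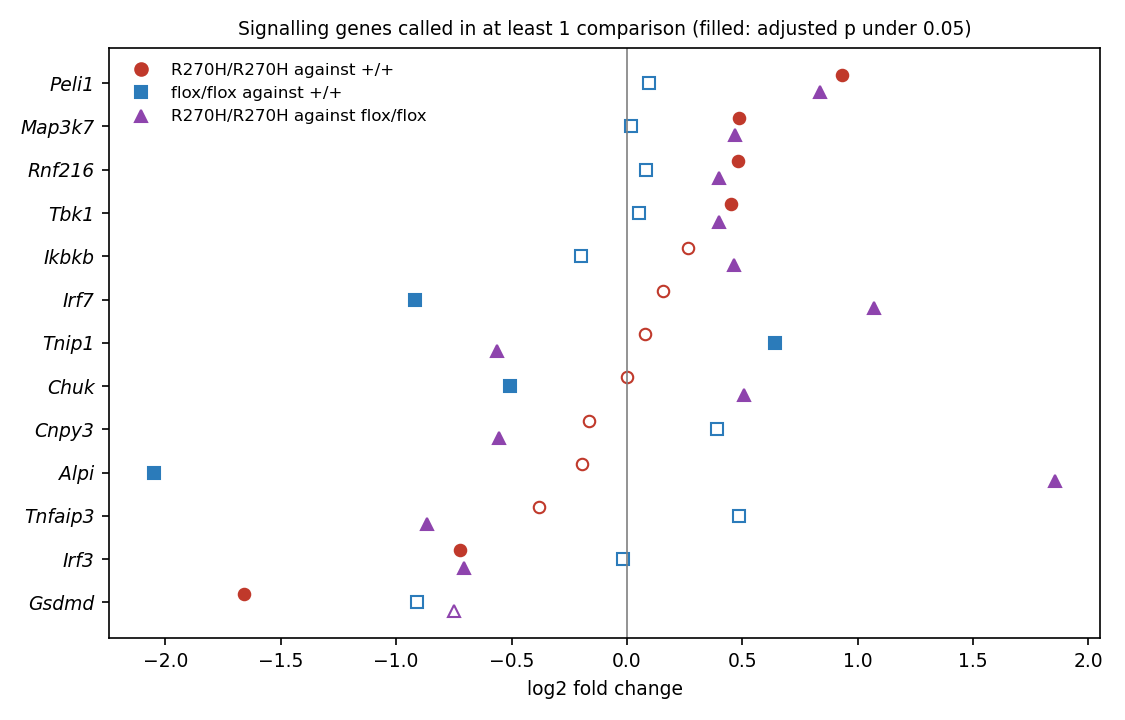
Log2 differences in log2(rpkm+1) between genotypes for the 13 genes of the wider list called in at least 1 comparison, with 1 point for each gene and comparison and filled points for an adjusted p under 0.05. *Gsdmd* (-1.66) is the lowest point for R270H/R270H against +/+, and *Alpi* is the lowest for flox/flox against +/+ (-2.05) and the highest for R270H/R270H against flox/flox (1.86), both set by the floor in flox/flox and not sizes of the change.

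The genes with the most similar pattern were found by Pearson's correlation of log2(rpkm+1) over the 6 libraries, which share only 3 genotypes, for the 5 genes called between R270H/R270H and +/+. Nearest to *Lbp* were *Slc7a8*, *Hoxa9* and *4921525O09Rik* (r=0.999 each), and 383 genes reached r of 0.95 or more with it. Nearest to *Tlr2* were *Ccdc45* (0.994), *Cbx1* (0.993) and *Nrbp1* (0.991), with 103 genes at 0.95 or more. Nearest to *Cd14* were *Dhrs7* (0.998), *Stc2* (0.996) and *Edn1* (0.996), with 140 such genes. Nearest to *Tlr4* were *Aspa* (0.992), *Rassf9* (0.990) and *Asb3* (0.989), with 119. Nearest to *Myd88* were *Gm4009* (0.996), *Ceacam1* (0.991) and *Foxa1* (0.990), with 122. With 6 points from 3 genotypes, the correlations are a description only.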

How the data were processed

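Organoids prepared independently from mice of each genotype gave 2 libraries per genotype, made with a stranded poly(A) kit. Per the authors, StrandNGS gave the deposited RPKM values (rpkm in the text) from reads aligned to mm10. Its version, gene annotation and read filters are not given in the sources used here. The table gives no read counts, so the depth behind each value is not known here and intervals cover the spread between libraries only. Values under 1 appear to have been raised to 1, which is inferred from the values, and rescaling moved these floored values with the others.

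The filter asked for 4 rpkm or more in any library and left 10042 genes. In R 4.3.3 with limma 3.58.1, a linear model of log2(rpkm+1) with genotype as the only term was run on the 6 libraries together, and eBayes was given a mean trend. Tests were two-sided, with Benjamini-Hochberg adjustment over all genes kept at 0.05. Python 3.11.15 with pandas 2.3.3, numpy 2.4.6 and matplotlib 3.10.9 was used for summaries, and the fit was checked on simulated data. The simulation gave a gene the same spread in all 6 libraries, so it could not address the wider spread of the flox/flox pair. Gene coordinates are those of GENCODE M21 (GRCm38), where all 10 genes were found, and those of the start-site windows are from RefSeq. RefSeq windows of start sites were taken for 6 of the 10, *Tlr1*, *Tlr2*, *Tlr3*, *Tlr5*, *Tlr9* and *Myd88*. Chromosome 18, which holds *Cd14*, was left out of this search. *Adgre1* is listed as *Emr1* and was matched by its identifier.

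The 10 genes and the lists were chosen with earlier results of these data known. Named beside them are every gene of the wider list called in a comparison, the rest of the TLR family, markers, and the 3 genes most like each of the 10 called between R270H/R270H and +/+. The alternatives were pseudocounts of 0.1 and none, a filter above 1 rpkm, of 4 rpkm in both libraries of a genotype or none, median-of-ratios and upper-quartile scaling, no trend, weights for each genotype, a fit of the 2 genotypes compared, a replicate block, and each library left out in turn.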

Additional observations from a re-analysis of the deposited data

How the results depend on the processing

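The tests rest on 2 libraries per genotype, and the wide spread of the flox/flox pair enters the estimate that all genotypes share. Changing the pseudocount, the scaling, the trend or the filter to above 1 or to 4 rpkm in both libraries kept the total of calls in each list and comparison within 1.5 times that reported, although the genes of the wider list called higher in R270H/R270H than in flox/flox went from 8 to 5 with median-of-ratios scaling. For the 10 genes, calls were 3 (R270H/R270H against +/+), 0 (flox/flox against +/+, 4 at an unadjusted p under 0.05) and 2 (R270H/R270H against flox/flox) without a filter. In the latter pair of comparisons they were 0 and 2 with genotype weights (1 at an unadjusted p under 0.05 in the first) and 0 and 2 in fits of the 2 genotypes compared (4), with *Myd88* lost in the first and *Tlr2* and *Tlr3* in the second under all 3 settings. *Myd88* and *Tlr2* were the 2 lost in R270H/R270H against +/+ without a filter. For the wider list, in the same order of comparisons, limma called 0, 0 and 0 of all 53 genes without a filter (12, 11 and 23 unadjusted). Of the 37 genes it called 23, 0 and 0 with weights (23, 7 and 12) and 23, 0 and 0 in fits of the 2 genotypes (23, 10 and 17). The shares over all genes, to be set beside both lists, were 1.18%, 0.202% and 2.07% without a filter (4100, 3965 and 4979 of 36172 genes unadjusted). They were 59.6%, 1.49% and 5.32% with weights (6458, 2137 and 2795 of 10042). In fits of the 2 genotypes they were 57%, 0.468% and 3.76% (6320, 2471 and 3045). With 1 library left out, calls ranged from 0 to 5, 0 to 4 and 1 to 6 for the 10 genes and from 0 to 23, 0 to 25 and 0 to 29 for the wider list. A lone library left in a genotype is there assumed to vary like the others. Calls were 0 for R270H/R270H against +/+ without either +/+ library (5 and 4 at an unadjusted p under 0.05) or the first R270H/R270H library (5), and 1 without the second. Flox/flox against +/+ had 4 without either flox/flox library and 0 without any other. *Tlr3* in R270H/R270H against +/+, which was not called, was -0.04 and lay between -0.10 and 0.0108 with 1 library left out, turning positive without the second +/+ library (adjusted p=0.988). The cause was not tested.

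The labels number the replicates 1 and 2 in each genotype, but by the series' design text the 2 libraries of a genotype come from 2 mice, and genotypes cannot share a mouse. Between genotypes, libraries of 1 number deviated from their means with a correlation of 0.117 (+/+ with flox/flox), -0.291 (+/+ with R270H/R270H) and -0.196 (flox/flox with R270H/R270H). With the number as a replicate block, the 10 genes had 4, 1 and 2 calls and the wider list 1, 0 (11 unadjusted) and 2. Over all 10042 genes tested, 5.48%, 2.79% (2945 genes unadjusted) and 11.5% were called in that fit. *Myd88* in R270H/R270H against +/+ (adjusted p=0.0943) and *Tlr2* and *Tlr3* in R270H/R270H against flox/flox (0.0887 and 0.0767) were then not called. With the R270H/R270H numbers exchanged, a pairing chosen after seeing the data, the calls were 4, 1 and 2 and, for the wider list, 2, 2 and 8. The shares over all genes were then 9.37%, 8.69% and 22.7%.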
